A study of Mus musculus with 8 samples.

Results

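Annexin transcripts were measured in EpCAM+ cells sorted from antral gastric tumors of Gp130FF; Yap1WT and Gp130FF; Yap1KO mice. The members were the entries of the deposited count table whose symbol is Anxa1, Anxa2, Anxa3, Anxa4, Anxa5, Anxa6, Anxa7, Anxa10, Anxa11 or Anxa13. These are 10 genes of the 25902 named entries in the table, and all 10 passed the filter on low counts described next to the first test. The table holds 2 more annexin genes, Anxa8 and Anxa9, which are not among the members.

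The study asked which transcripts change in the tumor epithelium when Yap1, the transcriptional co-activator at the end of the Hippo pathway, is deleted. All 8 mice carried the homozygous Gp130FF mutation of the gp130 receptor, which leads to spontaneous gastric tumors, and were 18 wk old per the labels (the paper's results give another age). Yap1KO mice were Gp130FF; Tff1:CreERT2; Yap1 fl/fl mice in which tamoxifen had activated the Cre recombinase and removed an exon of Yap1. The Tff1 promoter limits this deletion to cells of the gastric mucosal epithelium that use that promoter. Yap1WT mice are described in the paper as the same genotype given vehicle, while the labels state an interval of 3 days after tamoxifen for both groups. If Yap1WT mice had vehicle, an effect of tamoxifen cannot be told apart from that of the Yap1 deletion. There were 4 mice and 4 libraries in each group, with 27607755 to 77483047 counts per library in Yap1WT and 18229945 to 74278015 in Yap1KO. The level of Yap1 itself was 64.2 to 78.0 CPM (counts scaled to the size of the library, TMM-normalized) in the Yap1WT libraries and 21.3 to 29.7 CPM in the Yap1KO libraries, a log2 fold change of -1.51 (SE 0.13, adjusted p = 0.000208, edgeR).

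In the same libraries, 6 epithelial genes (Epcam, Cdh1, Krt8, Krt18, Krt19 and Cldn7) summed to 9336 to 11248 CPM over the Yap1WT libraries and 8593 to 10942 over the Yap1KO libraries. Epcam, the gene behind the sort, rose in Yap1KO (log2 fold change 0.76, SE 0.10, adjusted p = 0.00188, edgeR). Markers of B and plasma cells and of neutrophils summed to at most 2.94 and 2.43 CPM in any library, with Mpo at 0 in all 8, and those of T and NK cells to at most 2.02 CPM, with Cd8a and Ncr1 at 0 in all 8. Markers of fibroblasts and endothelial cells were present and are given next to the genes they move with. Replicate 4 of Yap1KO had the lowest depth and lay far from the rest on the leading principal axis (66.8, against -17.9 to 1.34 for the other 7 libraries, over the 500 genes of highest variance), so that the counts of called annexins are also given without it.

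Annexins are cytosolic proteins built on a conserved core that attaches to acidic phospholipids of membranes when calcium rises, each with its own amino-terminal tail that sets its partners. They link membranes to each other and to the cytoskeleton, take part in exocytosis, endocytosis and the resealing of a torn plasma membrane, and several bind small EF-hand calcium proteins of the S100 family. Some also act outside the cell, such as annexin A1 as a ligand of formyl peptide receptors and annexin A2 as a docking site for plasminogen. In the stomach, annexin A10 is known as a protein of the mucous surface epithelium, and its calcium-binding sites are largely degenerate.

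Anxa10 and Anxa3 were lower in Yap1KO than in Yap1WT, and the other 8 annexins did not pass the test in either direction. Anxa10 was the most abundant annexin per length in Yap1WT and was 1.97 times lower in Yap1KO, while Anxa3 was 1.41 times lower. The comparison used edgeR's quasi-likelihood test with Benjamini-Hochberg adjustment over 13495 genes, namely those above 0.5 CPM in at least 6 of the 8 libraries, and a gene was called at an adjusted p under 0.05. By this rule 5.87% of all genes tested were called, 2.34% lower and 3.53% higher in Yap1KO, against 2 lower and 0 higher among the 10 annexins. At an unadjusted p under 0.05, 2 annexins were lower and 2 were higher (Anxa6 and Anxa7), where 20.4% of all genes passed, 8.97% lower and 11.5% higher. DESeq2 and limma-voom each called the same 2 genes lower and 1 annexin, Anxa6, higher. They also called more of all genes, 587 lower and 858 higher of 12959 with DESeq2 and 385 and 571 of 13495 with limma-voom. The log2 fold change was below 0 for 3 members and above 0 for 7, with a median of 0.14, compared with -0.0093 over all genes tested. Without replicate 4 of Yap1KO, the count of annexins called lower was 1.

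**Figure D1:**
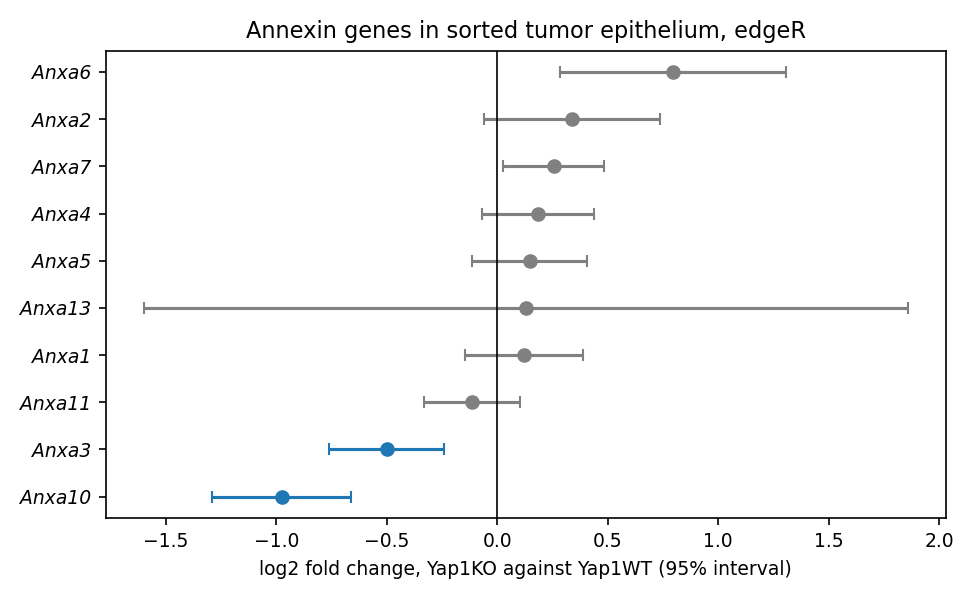
The x axis gives the log2 fold change of each annexin gene in Yap1KO against Yap1WT and each row is 1 gene, with the estimate as a point and its 95% interval as a bar (edgeR, 4 mice per group). Blue marks the 2 genes with an adjusted p under 0.05, Anxa10 at -0.98 and Anxa3 at -0.50, and the bar of Anxa13 runs from -1.60 to 1.86.

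Anxa10 lies on chromosome 8 (GRCm38 chr8:62057042-62123193, minus strand). Its level across replicates 1 to 4 of Yap1WT was 1981, 2815, 2228 and 2323 CPM, and across those of Yap1KO it was 1048, 1291, 1322 and 1087 CPM. Every Yap1KO library lay below every Yap1WT library, with a clear gap between 1322 and 1981 CPM. Groups without overlap were found for 2 of the 10 annexins, both lower, and for 13.2% of all genes tested, 6.01% with all Yap1KO libraries below and 7.19% with all above. The group means were 2337 ± 350 CPM and 1187 ± 140 CPM (SD, n = 4 each), and the log2 fold change was -0.98 (SE 0.14, 95% interval -1.29 to -0.66, adjusted p = 0.00299, edgeR). Anxa10 passed the threshold with each of the 8 libraries left out in turn (log2 fold change -1.05 to -0.87). The mouse numbers in the labels fall into a lower series (replicates 1 and 2) and a higher series (replicates 3 and 4), and the difference in mean log2 CPM was -1.02 within the first and -0.92 within the second.

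Because Anxa10 changed most and Anxa10 and Anxa2 were the most abundant annexins per length, the start-site windows of both genes are shown (250 bases before to 50 bases after the start, RefSeq, GRCm38.p6). Capitals mark TGAGTCA, the recognition sequence of AP-1 factors, searched on both strands as TGAGTCA or TGACTCA. This motif was chosen after the sequences had been seen. The first window is chr8:62123144-62123443 on the minus strand and the second is chr9:69453433-69453732 on the plus strand, both written 5′ to 3′ along the gene.
Anxa10: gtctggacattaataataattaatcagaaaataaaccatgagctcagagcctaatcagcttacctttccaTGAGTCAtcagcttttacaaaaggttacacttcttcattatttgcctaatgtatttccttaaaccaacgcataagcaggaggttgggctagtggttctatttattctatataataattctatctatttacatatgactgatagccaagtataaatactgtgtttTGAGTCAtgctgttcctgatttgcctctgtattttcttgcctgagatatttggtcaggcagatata
Anxa2: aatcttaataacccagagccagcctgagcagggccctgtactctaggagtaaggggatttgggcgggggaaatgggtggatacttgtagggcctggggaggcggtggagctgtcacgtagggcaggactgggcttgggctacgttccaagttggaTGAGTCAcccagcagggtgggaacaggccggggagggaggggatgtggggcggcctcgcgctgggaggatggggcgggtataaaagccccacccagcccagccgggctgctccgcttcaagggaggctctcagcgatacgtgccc
The Anxa10 window holds TGAGTCA at 2 places, 180 and 16 bases before the start site, and the Anxa2 window holds it once, 95 bases before the start site. The motif occurs in 5.20% of all 32851 RefSeq windows of the same length. It was in none of the other 7 windows, which belong to Anxa1, Anxa4, Anxa5, Anxa7 and Anxa11. Because the motif was chosen after the sequences had been seen, its share among all windows cannot serve to test the matches in Anxa10 and Anxa2. GGAATG, the core letters of the sequence that TEAD factors recognize, was searched on both strands as GGAATG or CATTCC and was found in the Anxa1 window alone, 236 bases before the start site, where 14.7% of all windows hold it. No window was available for Anxa3, Anxa6 or Anxa13, so neither motif was searched in those genes. These are matches of letters only, and no binding was measured.

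Markers of foveolar cells, the mucous cells of the gastric surface, moved in part with Anxa10. Of 12 tested foveolar markers other than Anxa10, 4 were lower (Clca1, Sult1c2, Capn8 and Vsig1) and 1 was higher (Gkn3) in Yap1KO, with a median log2 fold change of -0.95. The paper had already named Clca1, Sult1c2 and Capn8 from these same data, so their calls are not independent of it. Gkn1, Gkn2, Tff1 and Muc5ac, also on the list, were not called (adjusted p = 0.172, 0.109, 0.143 and 0.682, edgeR). Capn9, a further foveolar marker, did not pass the filter because it was nearly gone from Yap1KO, at 17.2 to 37.5 CPM in the Yap1WT libraries against 0 to 0.891 CPM. The list as written also holds Tff2 and Gkn3, which mucous neck cells are known to make, and Tff2 was the most abundant gene in its sum of 74918 to 121385 CPM over the Yap1WT libraries and 79097 to 106352 over the Yap1KO libraries. Without these 2 genes, a choice made after seeing the data, 10 markers were tested, 4 were lower and 0 were higher, and all 10 had a log2 fold change below 0. Their sum with Capn9, most of it from Gkn1, Gkn2 and Tff1, was 30908 to 62272 CPM over the Yap1WT libraries and 21351 to 37469 over the Yap1KO libraries, with overlap. Of 6 tested mucous neck cell markers, 4 were higher (Cd44, Aqp5, Sox9 and Glipr1) and 0 were lower. The paper also reported Cd44 as higher in these data. The most abundant, Muc6, had means of 1633 and 3586 CPM in Yap1WT and Yap1KO, with overlap, and was not called (adjusted p = 0.0543, edgeR). Cftr, the next, went the other way (886 and 712 CPM, log2 fold change -0.31, adjusted p = 0.305, edgeR). The sum of the 6 markers was 2150 to 3944 CPM over the Yap1WT libraries and 3718 to 6515 over the Yap1KO libraries, with overlap. The part of these cell types in the fall of Anxa10 was not tested, and in bulk RNA fewer cells of a type and less RNA per cell cannot be told apart.

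The tested genes whose profile over the 8 libraries was most like that of Anxa10, by the root mean square distance between mean-centred log2 CPM values, were Wdr31 (distance 0.13), Cbr1 (0.14) and Syt16 (0.15). Cbr1, a carbonyl reductase, had means of 324 CPM in Yap1WT and 165 CPM in Yap1KO, and Syt16, a member of the synaptotagmin family, 75.3 and 35.4 CPM. Wdr31 was rare, at 2.51 and 1.38 CPM. A gene that splits the groups by a similar amount comes out near in this measure by construction.

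Anxa3 (chr5:96793385-96845968, plus strand) encodes an annexin that promotes membrane contact and is abundant in neutrophils as well as in epithelia. Its level was 327, 399, 356 and 385 CPM across replicates 1 to 4 of Yap1WT and 233, 304, 234 and 266 CPM across those of Yap1KO. The groups did not overlap, and replicate 2 of Yap1KO came closest to the Yap1WT range. The means were 367 ± 31.9 and 259 ± 33.6 CPM (SD, n = 4 each), and the log2 fold change was -0.50 (SE 0.12, 95% interval -0.76 to -0.24, adjusted p = 0.0348, edgeR). The call was lost when any 1 of 6 libraries was left out: replicates 2, 3 and 4 of Yap1WT gave adjusted p = 0.0828, 0.0819 and 0.0683, and replicates 1, 3 and 4 of Yap1KO gave 0.0863, 0.0766 and 0.0747 (edgeR). Over the same fits the log2 fold change stayed between -0.59 and -0.45, and within the series of mouse numbers the difference in mean log2 CPM was -0.44 and -0.57. None of the 8 neutrophil markers passed the filter, and the most abundant, Cxcr2 and S100a9, reached at most 1.39 and 1.74 CPM in any library. The genes most like Anxa3 by the same distance were Sdcbp2 (0.059), Anapc11 (0.093) and Fnta (0.10). Sdcbp2 encodes syntenin-2, a PDZ protein that binds phosphoinositides, and had means of 252 and 168 CPM.

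Per length, on the scale of the deposited log2 RPKM values, the annexins spanned a wide range in the tumor epithelium. In Yap1WT the order of the means was Anxa10 (10.77), Anxa2 (9.86), Anxa1 (8.48), Anxa4 (8.23), Anxa3 (7.86), Anxa7 (6.73), Anxa5 (6.36), Anxa11 (6.28), Anxa13 (2.78) and Anxa6 (2.70). Neighbours whose libraries overlapped in that order were Anxa1 and Anxa4, Anxa5 and Anxa11, and Anxa13 and Anxa6, while the other neighbours were separate. In Yap1KO, Anxa2 (10.24) came before Anxa10 (9.88) on this scale, but their libraries overlapped, and Anxa6 (3.50) came before Anxa13 (2.95), also with overlap. In that group Anxa1 and Anxa4 overlapped as well, and Anxa5 and Anxa11 were separate. Among all 13819 genes with deposited log2 values, ordered by the group mean, Anxa10 held place 28 in Yap1WT and 47 in Yap1KO, and Anxa2 held place 48 and 34.

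**Figure D2:**
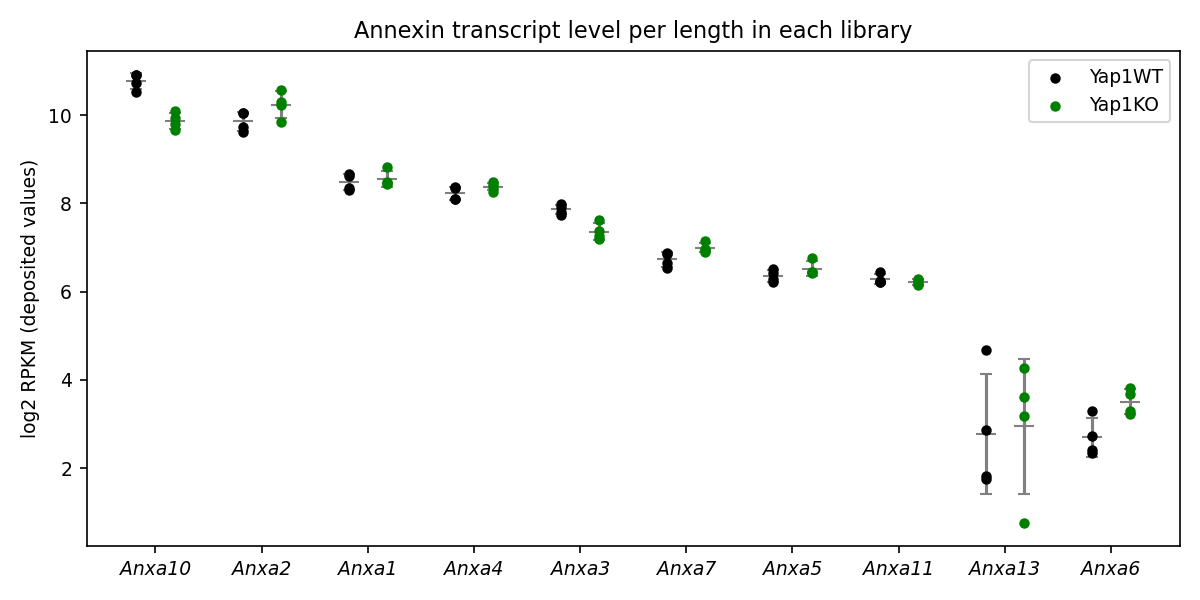
The y axis gives the deposited log2 RPKM of each annexin and each point is 1 library, black for Yap1WT and green for Yap1KO, with the group mean and SD (n = 4) as a grey dash and bar. Anxa10 is the highest gene in Yap1WT at a mean of 10.77 and has a mean of 9.88 in Yap1KO, near that of Anxa2 at 10.24, an order that turns with CPM per kb of exons, and Anxa13 has the widest spread.

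Within single libraries, the log2 RPKM of Anxa10 exceeded that of Anxa2 by 0.79, 0.85, 1.13 and 0.87 in Yap1WT replicates 1 to 4. In Yap1KO replicates 1 to 4 the same difference was -0.57, -0.64, 0.26 and -0.49, with only replicate 3 above 0. The order of these 2 genes in Yap1KO depends on the length scaling, which the sources used here do not state for the deposited values. The other scale, CPM per kb of annotated exons, divides by the union of all GENCODE exons, 2292 bases for Anxa10 and 3731 for Anxa2. The reads were counted on RefSeq genes, so these lengths need not be those over which they were counted. On CPM per kb of annotated exons, Anxa10 was above Anxa2 in all 4 Yap1WT and all 4 Yap1KO libraries, with means of 1020 and 348 CPM per kb in Yap1WT and 518 and 440 CPM per kb in Yap1KO. As a share of the summed RPKM of the 10 annexins, Anxa10 made up 45.3% ± 2.30 in Yap1WT and 28.2% ± 4.59 in Yap1KO (SD, n = 4 each), where replicate 3 was the highest of the Yap1KO libraries at 35.1%. Anxa2 made up 24.1% ± 1.72 and 36.2% ± 4.69. With CPM per kb of exons the shares were 52.0% ± 2.76 and 33.2% ± 4.70 for Anxa10 and 17.8% ± 2.03 and 27.9% ± 4.13 for Anxa2. On that scale the 2 genes were close in 3 of the Yap1KO libraries, at 30.1% and 29.9% in replicate 1, 31.8% and 31.2% in replicate 2 and 30.8% and 28.4% in replicate 4, against 40.2% and 21.9% in replicate 3. A share of a sum moves whenever another gene of the sum does, and the groups overlapped for Anxa2 itself. The summed RPKM of all 10 genes was 3508 to 4275 in Yap1WT and 3120 to 3822 in Yap1KO, with overlap.

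**Figure D3:**
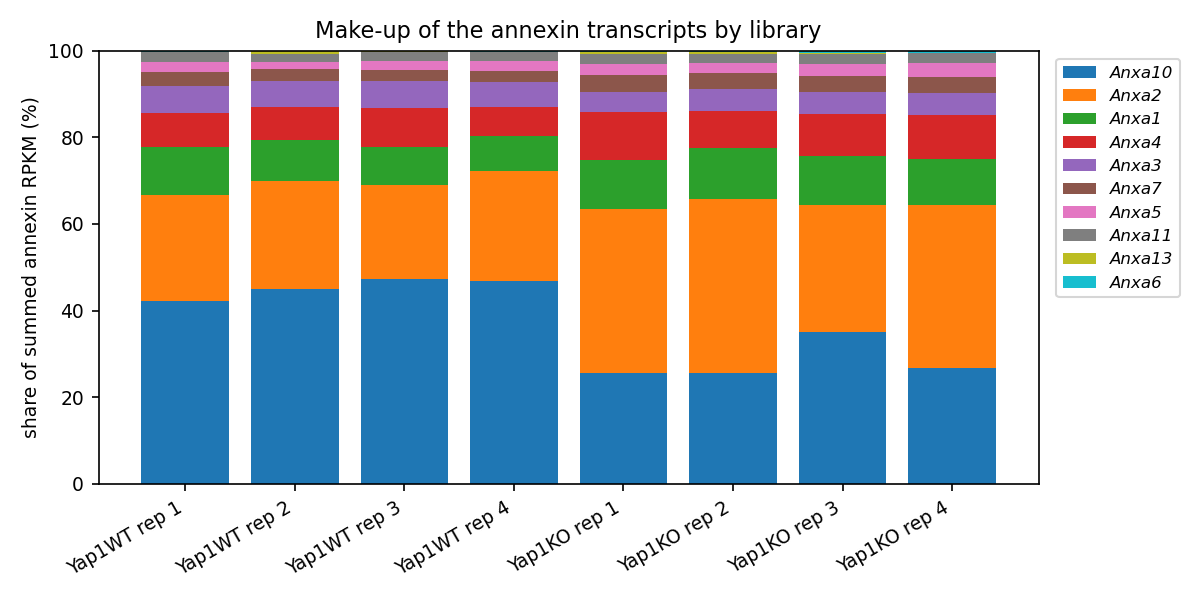
Each bar is 1 library and its colours give the share of the summed RPKM (%) of the 10 annexin genes. Anxa10, at the bottom of each bar, takes 42.2% to 47.3% in the Yap1WT libraries and 25.5% to 35.1% in the Yap1KO libraries, and Anxa2 above it takes 21.7% to 25.6% and 29.4% to 40.0%.

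Anxa2 (chr9:69453683-69491792, plus strand) encodes the annexin that pairs with S100A10 at the plasma membrane and binds plasminogen activators. It was measured at 1211, 1404, 1058 and 1517 CPM across replicates 1 to 4 of Yap1WT and at 1697, 2063, 1174 and 1630 CPM across those of Yap1KO. Of the Yap1KO libraries, 3 were above all Yap1WT libraries and replicate 3 was below replicates 1, 2 and 4 of Yap1WT. The log2 fold change of 0.34 (SE 0.18, 95% interval -0.06 to 0.74, adjusted p = 0.334, edgeR) did not pass the test. The difference in mean log2 CPM was 0.52 within the first series of mouse numbers and 0.13 within the second.

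Anxa1 (chr19:20373434-20390671, minus strand) encodes the ligand of formyl peptide receptors and inhibitor of phospholipase A2. Its level was 531, 519, 446 and 449 CPM in Yap1WT and 512, 622, 459 and 521 CPM in Yap1KO, and the groups overlapped. The log2 fold change was 0.12 (95% interval -0.15 to 0.39), with an adjusted p of 0.634 from edgeR. Anxa4 (chr6:86736840-86793634, minus strand), an annexin of secretory epithelia, had 532, 630, 648 and 557 CPM in Yap1WT and 746, 654, 592 and 698 CPM in Yap1KO. Its groups also overlapped, and the log2 fold change was 0.18 (95% interval -0.07 to 0.44, adjusted p = 0.412, edgeR).

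Anxa5, Anxa7 and Anxa11 were expressed at intermediate levels with little spread, the coefficient of variation within a group being 5.63% to 13.3%. Anxa5 (chr3:36448923-36475887, minus strand), whose protein binds exposed phosphatidylserine, ranged from 127 to 159 CPM in Yap1WT and from 142 to 187 CPM in Yap1KO (log2 fold change 0.15, 95% interval -0.11 to 0.41). Anxa11 (chr14:25842127-25886804, plus strand), whose protein tethers RNA granules to lysosomes, ranged from 173 to 214 CPM and from 162 to 186 CPM (log2 fold change -0.12, 95% interval -0.33 to 0.10). Neither was called by edgeR (adjusted p = 0.534 for Anxa5 and 0.563 for Anxa11). Anxa7 (chr14:20455261-20480133, minus strand), a membrane fusion protein that binds sorcin, had 329, 341, 283 and 302 CPM in Yap1WT and 371, 410, 337 and 380 CPM in Yap1KO. Only replicate 3 of Yap1KO fell within the Yap1WT range, and the log2 fold change of 0.25 (SE 0.10, 95% interval 0.03 to 0.48) had an unadjusted p of 0.0329 and an adjusted p of 0.193 in edgeR.

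Anxa6 (chr11:54978953-55033471, minus strand) encodes an annexin with a duplicated core that takes part in membrane repair and cholesterol transport and is abundant in stromal and muscle cells. Its level was 17.3, 14.1, 12.7 and 25.6 CPM across replicates 1 to 4 of Yap1WT and 24.3, 26.0, 33.9 and 36.6 CPM across those of Yap1KO. The groups overlapped through replicate 4 of Yap1WT, which was higher than replicate 1 of Yap1KO. The log2 fold change was 0.79 (SE 0.23, 95% interval 0.28 to 1.31) with an adjusted p of 0.0798 in edgeR, and it passed the threshold without replicate 4 of Yap1WT (1.04, adjusted p = 0.0158, edgeR), in DESeq2 (0.79, adjusted p = 0.016), in limma-voom (0.85, adjusted p = 0.0282) and with a block for the lower and higher mouse numbers (0.78, adjusted p = 0.0458, edgeR). Without other single libraries the lowest value was 0.67, and the differences in mean log2 CPM within the series of mouse numbers were 0.69 and 0.96.

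Stromal markers moved with Anxa6. The summed level of 12 fibroblast markers was 483, 243, 135 and 973 CPM across replicates 1 to 4 of Yap1WT and 441, 734, 1230 and 1382 CPM across those of Yap1KO, which is the order of Anxa6 within each group. The summed level of 12 endothelial markers was 290, 299, 178 and 621 CPM in Yap1WT and 574, 956, 788 and 1149 CPM in Yap1KO, which is not the order of Anxa6 in either group. Among the fibroblast markers 0 were called, 11 of 12 had a log2 fold change above 0 and the median was 1.04, with Col3a1 and Sparc the most abundant. Among the endothelial markers 2 were higher (Vwf and Tie1), all 12 were above 0 and the median was 1.24, with Plvap and Pecam1 the most abundant. No marker of either list was at 0 in all libraries. The part of stromal RNA in the Anxa6 values was not tested.

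**Figure D4:**
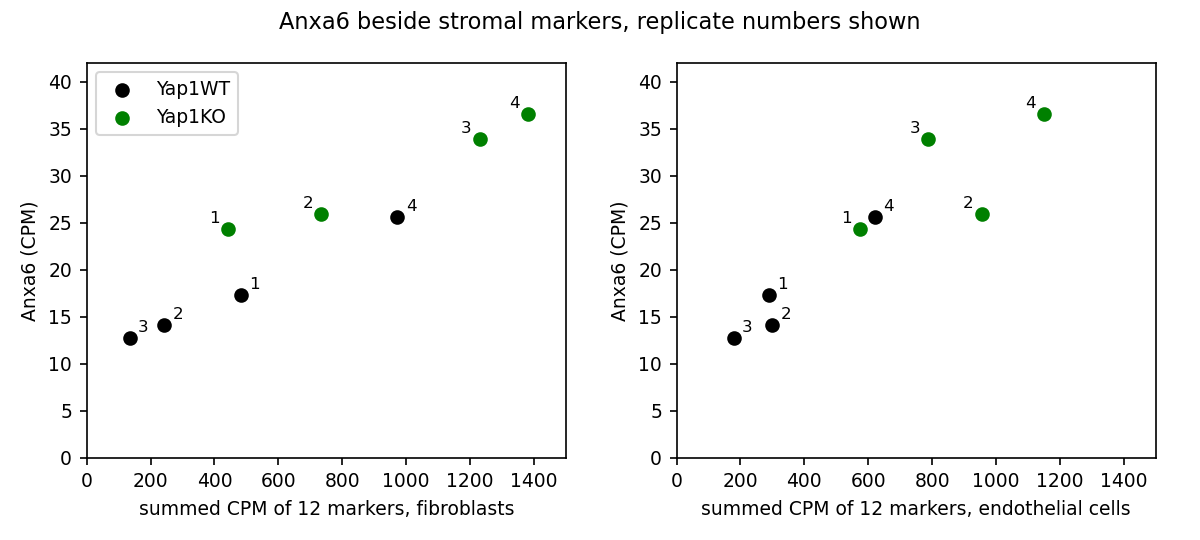
The y axis of both panels gives Anxa6 (CPM), and the x axis gives the summed CPM of 12 fibroblast markers on the left and of 12 endothelial markers on the right, with 1 point per library and its replicate number. Replicate 4 has the highest Anxa6 and the highest fibroblast sum in both groups, 973 CPM in Yap1WT and 1382 CPM in Yap1KO.

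Anxa13 (chr15:58341464-58389274, minus strand), which encodes an annexin of intestinal and renal epithelium, was the most variable member. Its level was 8.37, 29.6, 3.05 and 3.80 CPM across replicates 1 to 4 of Yap1WT and 13.9, 22.2, 10.8 and 1.86 CPM across those of Yap1KO. Both the highest Yap1WT and the lowest Yap1KO library lay outside the range of the other group, and the coefficient of variation was 111% in Yap1WT and 68.8% in Yap1KO. The log2 fold change of 0.13 had a 95% interval from -1.60 to 1.86 (adjusted p = 0.954, edgeR), so a change of either sign and considerable size was not excluded with these mice. Leaving out single libraries moved it from -0.32 (without replicate 2 of Yap1KO) to 1.27 (without replicate 2 of Yap1WT).

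Intestinal markers varied between the same libraries. Cdh17, the intestinal cadherin, was at 0.438, 29.6, 0.304 and 5.23 CPM in Yap1WT and at 55.1, 52.9, 22.0 and 6.72 CPM in Yap1KO, and Alpi, the intestinal alkaline phosphatase, was at 23.4, 181, 38.3 and 46.2 CPM and at 216, 224, 93.3 and 42.7 CPM. As for Anxa13, replicate 2 was the highest Yap1WT library and replicate 4 the lowest Yap1KO library for both genes, which were chosen after their values were seen. The same held for 5 of the 8 intestinal markers (Cdh17, Alpi, Fabp2, Muc2 and Cdx1) and not for Cdx2, Vil1 and Lgals4, whose lowest Yap1KO library was replicate 3. Of the 8 intestinal markers 7 were tested, 0 were called and the median log2 fold change was 0.997, and the whole list, led by Lgals4 and Vil1, summed to 1943 to 2967 CPM over the Yap1WT libraries and 1266 to 2416 over the Yap1KO libraries. The part of intestinal-type cells in the spread of Anxa13 was not tested.

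The genes known to work with annexins were taken from 5 short lists. Of 6 EF-hand partners, 0 were called in either direction, with a median log2 fold change of 0.11. The most abundant were S100a6, a partner of annexin A11, at 1799 ± 278 and 1666 ± 337 CPM, and Sri, which encodes sorcin, at 425 ± 47.4 and 316 ± 27.4 CPM in Yap1WT and Yap1KO (SD, n = 4 each). Sri had a log2 fold change of -0.43 and an adjusted p of 0.053 in edgeR, and all Yap1KO libraries were below all Yap1WT libraries. The dedicated partner of annexin A2, S100a10, was at 110, 183, 111 and 122 CPM in Yap1WT and 168, 235, 144 and 189 CPM in Yap1KO (log2 fold change 0.49, SE 0.20, adjusted p = 0.191, edgeR), with overlap as for Anxa2, and was named after its values had been seen.

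The formyl peptide receptors, through which annexin A1 signals, were not detectable at this depth. Fpr1 and Fpr3 had 0 counts in all 8 libraries, and Fpr2 had 4 counts in replicate 1 of Yap1WT and 0 in the others. A count of 0 allows up to 3 counts, which is 0.165 CPM in the shallowest library and 0.0387 CPM in the deepest, for counting error only. In the plasmin system, of which annexin A2 is a surface component, 6 of 8 genes were tested, 0 were called and the median log2 fold change was 0.49. Plaur, the urokinase receptor, was at 103 ± 19.0 and 85.2 ± 18.4 CPM, and Plat, the tissue plasminogen activator, was at 44.1 ± 19.6 and 51.3 ± 9.06 CPM (SD, n = 4 each).

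Of 14 genes of membrane repair, the process in which annexins cap a wound, 13 were tested, 1 was higher and 0 were lower, with a median log2 fold change of -0.08. The higher one was Dysf, which encodes dysferlin, a membrane fusion protein. It was at 5.43, 7.08, 4.31 and 12.4 CPM in Yap1WT and 10.5, 21.9, 19.3 and 24.9 CPM in Yap1KO, so the groups overlapped through replicate 4 of Yap1WT, as they did for Anxa6. Within each group the libraries had the same order for Dysf as for the summed endothelial markers given beside Anxa6. The summed fibroblast markers had another order, and the part of endothelial RNA in Dysf was not tested. The log2 fold change was 1.40 (SE 0.36, adjusted p = 0.0485, edgeR), and no gene of the 5 lists was called higher without replicate 1 or 3 of Yap1WT or without replicate 2, 3 or 4 of Yap1KO.

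Phospholipase A2 and prostaglandin enzymes were listed because annexin A1 was first described as an inhibitor of phospholipase A2. Of 7 genes 6 were tested, 1 was lower and 0 were higher, with a median log2 fold change of 0.04. The lower one was Pla2g4e, a calcium-dependent N-acyltransferase of the cytosolic phospholipase A2 family. It fell from 44.3 ± 9.53 to 7.88 ± 2.62 CPM (SD, n = 4 each), a log2 fold change of -2.50 (SE 0.25, adjusted p = 0.000491, edgeR), and the groups did not overlap. Pla2g4a, the cytosolic phospholipase A2 that annexin A1 can inhibit, was at 142 ± 10.7 and 116 ± 3.13 CPM with an adjusted p of 0.0922 in edgeR, and was also named after its values had been seen.

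Exons of 4 annexin genes overlap those of another annotated gene, and the library kit does not mark strand, so their reads cannot be told apart there. The overlaps are short, 98 bases between Anxa2 and Gm16144, 112 bases between Anxa3 and Gm42603, 75 bases between Anxa4 and Gm44036 and 113 bases between Anxa11 and Anxa11os. In the count table Gm16144 had 6 to 121 reads in a library. Anxa10 has no such overlap.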

How the data were processed

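RNA of EpCAM+ tumor cells was sequenced from 8 mice, 4 per group. The authors aligned 80 bp paired reads to GRCm38/mm10 with Subread and made the deposited raw counts with featureCounts on RefSeq genes; the kit (TruSeq RNA v2) does not mark strand. The deposited log2 values are headed FPKM and are called log2 RPKM here. The paper describes voom with quantile normalization, and every library has the same maximum of 16.43, but how the authors scaled the values to gene length is not given in the sources used here, so levels between genes carry that limit. A further 6 columns of counts match no sample and were not used. Entries without a name (1277, at most 0.789% of a library) and pseudogenes absent from the log2 values were left out. Counts were compared with edgeR 4.0.16 in R 4.3.3 (TMM, quasi-likelihood F test, Benjamini-Hochberg), with CPM scaled to the same effective library sizes and SD over 4 mice, and the fit was tested on simulated counts. The precision of low genes is limited by depth, 18229945 to 77483047 counts. Alternatives were DESeq2 1.42.0, limma 3.58.1 (voom and trend), other size factors and filters, pseudogenes kept, blocks for replicate number and mouse series, and leaving out each library. The members and all gene lists were chosen with earlier results of these data known. The named genes were all members, Yap1, Anxa8 and Anxa9, the 3 genes nearest in profile to each called member, the called or else the 2 most abundant genes of each pathway list, and the 2 most abundant of each marker list. Gene positions are from RefSeq, and strand and exons are from GENCODE. Promoter windows are from RefSeq (GRCm38.p6) and matched 7 of the 10 members. Protein sequences were not used here. Figures were drawn with matplotlib 3.10.9.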

Additional observations from a re-analysis of the deposited data

How the results depend on the processing

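Over 11 alternatives that keep all 8 libraries, the number of annexins called lower was 2 in each. The number called higher, 0 in edgeR, was 1 under DESeq2, limma-voom, the replicate block and the block for the series of mouse numbers, each time Anxa6 (log2 fold change 0.78 to 0.85, adjusted p = 0.016 to 0.0458). Over all genes, the counts of 316 lower and 476 higher became 587 and 858 under DESeq2 and 552 and 755 under the replicate block. They were 385 and 571 under limma-voom and 451 and 598 under the series block. Across the 5 pathway lists, 1 lower gene became 2 with RLE factors, limma-voom, limma-trend or the series block, 3 with the replicate block and 4 with DESeq2, and 1 higher gene became 0 with limma-trend or a filter at 4 libraries, 2 with DESeq2 and 3 with the replicate block. Same-numbered libraries are different mice, and their deviations from the group means correlated at 0.04, 0.35, 0.05 and 0.15. These correlations do not exclude variation shared by replicate number, which also follows the series of mouse numbers. With CPM per kb of exons in place of the deposited RPKM, 6 of 10 annexins kept their place in the order of levels, and Anxa10 was above Anxa2 in all 4 Yap1KO libraries, against 1 of 4 on the deposited scale. Those exon lengths are GENCODE unions, while the reads were counted on RefSeq genes. When single libraries were left out, annexins called lower numbered 1 to 2 and higher 0 to 1, all genes 158 to 298 lower and 247 to 485 higher (fewest without replicate 3 of Yap1WT), and pathway genes 1 to 3 lower and 0 to 1 higher. Fewer libraries also give fewer residual degrees of freedom. Anxa13 turned to -0.18, -0.15 and -0.32 without replicate 3 or 4 of Yap1WT and replicate 2 of Yap1KO, with 1.27 without replicate 2 of Yap1WT as its highest value, and the cause was not tested. Depth limits the statement on the formyl peptide receptors.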

Other observations

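Anxa8, an annexin of squamous and injured epithelia, was at 109, 113, 143 and 157 CPM in Yap1WT and 172, 148, 143 and 156 CPM in Yap1KO, with a log2 fold change of 0.25 (95% interval -0.04 to 0.54, adjusted p = 0.335, edgeR) and overlapping groups. Of 8 squamous markers 5 were tested and 0 were called, with a median log2 fold change of -0.0073, and their sum, led by Ivl and Krt5, was 53.7 to 127 CPM over the Yap1WT libraries and 104 to 167 over the Yap1KO libraries. Anxa9, an annexin that has lost calcium-dependent membrane binding, was low but measured, at 1.15 to 2.13 CPM in all 8 libraries (log2 fold change 0.13, adjusted p = 0.890, edgeR). Of 12 macrophage and dendritic cell markers 5 were tested, 1 was higher (Cd68) and 0 were lower. Only 1 of these 5 had a log2 fold change above 0, and the median was -0.31. The sum of the 12 markers, led by Cd14, was 45.1 to 91.8 CPM over the Yap1WT libraries and 42.9 to 73.1 over the Yap1KO libraries.

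Among the 4 Yap1KO libraries, replicate 2 had the highest log2 CPM for 5 of the 10 annexins and replicate 4 for 3, and among the 4 Yap1WT libraries replicates 2 and 4 were highest for 4 annexins each.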
